A study of Mus musculus with 12 samples.

Results

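The genes described here encode proteins of the splicing machinery and its RNA-binding partners in mouse cerebellum: the SR proteins (Srsf genes), the heterogeneous nuclear ribonucleoproteins (Hnrnp genes), the proteins of the small nuclear ribonucleoproteins or snRNPs (Snrp genes), the SF3a and SF3b complexes (Sf3a and Sf3b genes) and the PRPF proteins (Prpf genes). They were taken by name as every probe set, the unit of measurement on the array, with a single gene symbol beginning with Srsf, Sf3a, Sf3b or Prpf and a number, or with Hnrnp or Snrp. This gave 49 genes with 68 probe sets, of 8252 named genes and 12488 probe sets on the array. By family there were 16 probe sets of SR proteins, 22 of hnRNPs, 10 of snRNP proteins, 10 of the SF3 complex and 10 of PRPF proteins. A further 7 probe sets with such a symbol among several symbols were left out. The name rule also takes Snrp1c-ps2, which the RefSeq gene table lists as a pseudogene.

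The arrays compared Ts1Cje mice, which carry an extra copy of part of chromosome 16 and serve as a partial trisomy model of Down syndrome, with their euploid counterparts at birth (P0), on postnatal day 15 (P15) and on day 30 (P30). Total RNA of whole frozen cerebella was pooled, with 3 cerebella in each Ts1Cje pool and 3 in each euploid pool except the euploid P30 pool, which held 2. Each of the 6 pools was hybridised to 2 arrays, giving 12 arrays. The pool is therefore the replicate, the spread between single animals was not measured, and each genotype had 1 pool per stage. Sex and strain background are not given in the labels used here.

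Splicing removes introns from pre-mRNA. Most spliceosomal snRNPs are built on a ring of Sm proteins, and the SF3 complexes anchor the U2 snRNP at the branch site. Many PRPF proteins join or remodel the U4/U6.U5 particle during assembly of the spliceosome. SR proteins mostly promote the use of nearby splice sites, while hnRNPs bind nascent RNA and often repress them. In the postnatal cerebellum these factors act while granule cell precursors divide, leave the cycle and mature, and many neuronal exons switch during that time.

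Values are linear MAS5 signals, and differences are on the scale of log2(signal + 4.6). A probe set was tested if its mean signal over the 12 arrays reached 20.1, which held for 7453 probe sets, among them 60 of the 68 splicing probe sets (48 of 49 genes). A call is a limma adjusted p under 0.05 over all 7453. The 8 that were too dim were both probe sets of Prpf39, a pair for Srsf1, and single probe sets of Hnrnpab, Hnrnpdl, Hnrnpu and Snrpb. Median signal per array was 30.4 to 36.2, and the ratio of 3' to 5' signal was 0.842 to 1.07 for GAPDH and 1.13 to 1.67 for actin, with the 2 highest actin ratios on the Ts1Cje P30 arrays. The Ts1Cje P15 pool stood apart in Xist, which coats the silenced X of females, at 105.6 and 77.6 against 1.4 to 6.7 on the other 10 arrays. Of the marker lists for cerebellar cells, all 8 tested genes of Purkinje cells and all 7 of mature granule cells were called higher at P30 than at P0, against 19.4% of all tested.

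Between P30 and P0, 23 of the 60 tested splicing probe sets were called, most of them lower at P30, and 37 were not. Of the 60, 18 were lower at P30, against 19.6% of all tested probe sets, and 5 were higher, against 19.4%. The median difference was -0.19 over the 60, against 0.04 over all 7453. The falls held the Sm proteins Snrpg, Snrpe and Snrpd3, the hnRNPs Hnrnpr and Hnrnpdl, and the SR proteins Srsf1 and Srsf2, while Hnrnpu and Prpf38b rose. Without regard to any test, the 2 P30 arrays lay below the 2 P0 arrays in both genotypes for 21 splicing probe sets and above them for 7, where all tested probe sets gave 25.3% below and 25.9% above. The comparison of P30 with P0 was added after the values of the neighbouring stages had been seen.

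Fewer calls fell on the steps between neighbouring stages. At P15, 8 of the 60 were lower than at P0, against 14.4% of all tested probe sets, and 4 were higher, against 13.6%. The 8 became 4 without the Ts1Cje P15 pool and 2 without the Ts1Cje P0 pool. At P30, 3 were lower than at P15, against 3.13%, and 0 were higher, against 1.61%. The median of the 60 was -0.11 for the first step and -0.14 for the second, against -0.03 and 0.06 over all tested. These comparisons share pools, so they are not independent of each other.

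The number of calls depended on single pools and on the hybridisation. The 18 lower at P30 than at P0 became 8 without the Ts1Cje P0 pool, 10 without the Ts1Cje P30 pool and 11 without the euploid P30 pool. With hybridisation 1 alone there were 25, and with hybridisation 2 alone 8. Of the 23 calls between P30 and P0, 9 held under each of the 15 alternatives run for them, and they belong to Snrpg, Snrpe, Snrpd3, Hnrnpr, Hnrnpu, both probe sets of Hnrnpdl and both of Srsf2.

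**Figure D1:**
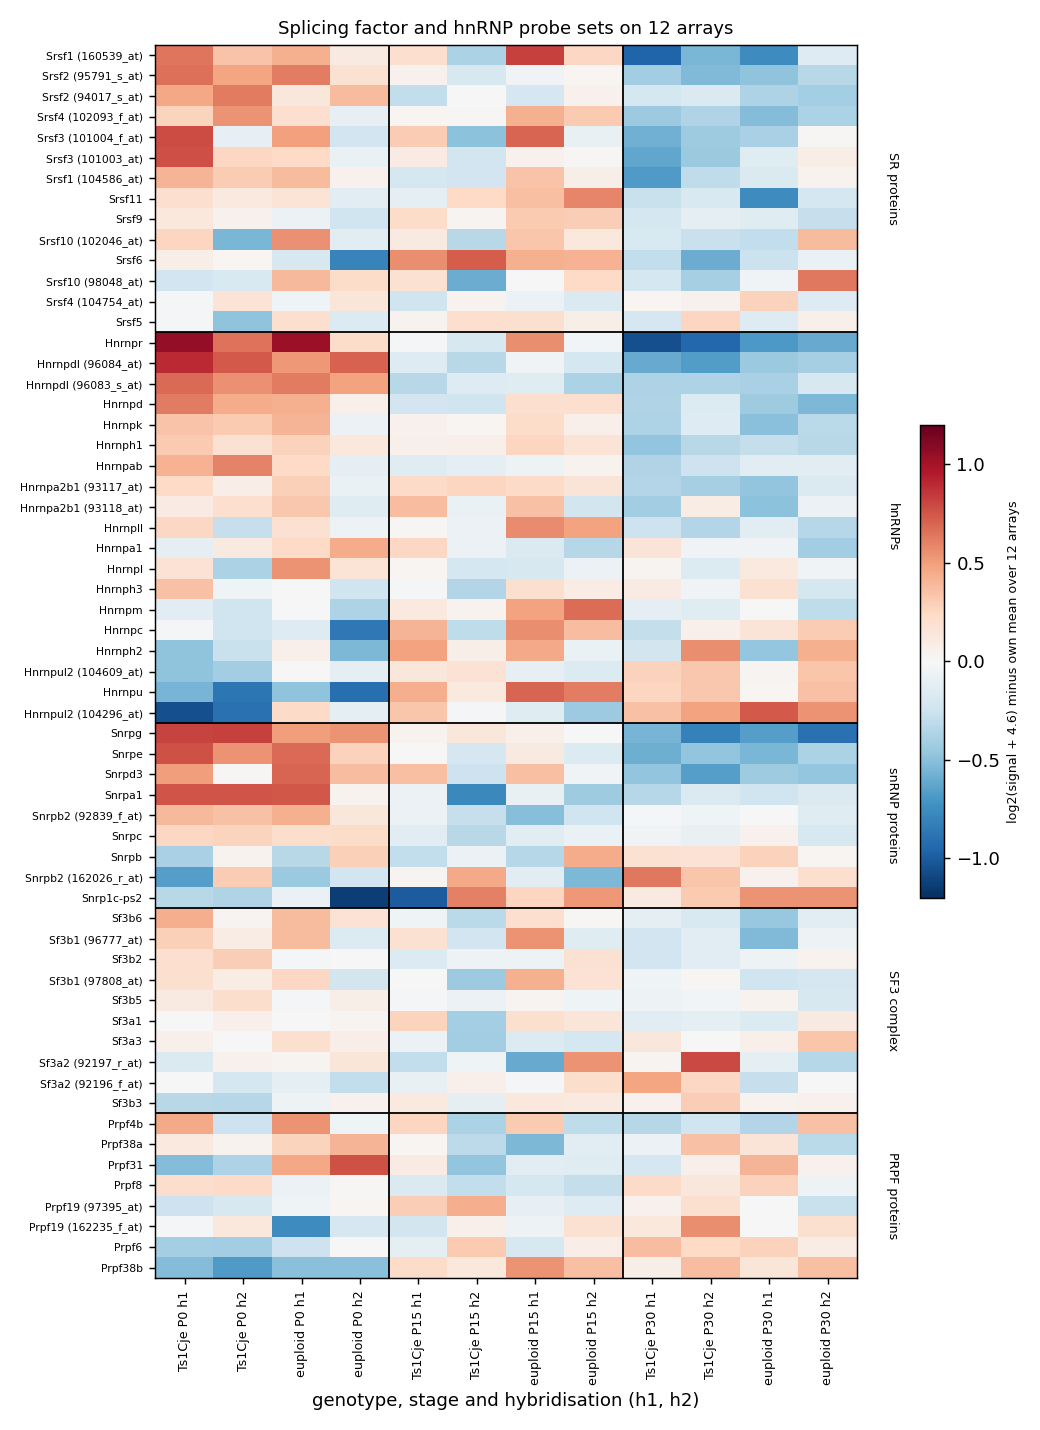
Signal of the 60 tested splicing probe sets (one per line, grouped by family and ordered by P30 minus P0) on the 12 arrays (columns, Ts1Cje left of euploid within each stage, h1 and h2 for the hybridisations). Colour is log2(signal + 4.6) minus the probe set's own mean over the arrays, from blue (low) to red (high), and the upper lines of the SR, hnRNP and snRNP blocks are red at P0 and blue at P30.

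Most tested marker genes on the lists for cell division and immature neurons fell over the same stages, while those for granule progenitors went both ways. Of 16 tested genes of cell division, 12 were lower at P30 than at P0 and 0 higher. Over all tested probe sets 19.6% were lower and 19.4% higher, the shares to set beside each list below. Their summed signal on Ts1Cje arrays was 4592 to 4703 for P0, 2129 to 2188 for P15 and 1378 to 1465 for P30, and on euploid arrays it was 4803 to 4898 for P0, 1895 to 1970.3 for P15 and 1575 to 1609 for P30. Stmn1, a tubulin-binding protein, made up most of these sums at P0, and without it they were 702.9 to 730.5 for P30 against 1384 to 1497 for P0 in Ts1Cje, and 624.9 to 757 for P30 against 1217 to 1239 for P0 in euploid. Of 11 tested genes of immature neurons, 10 were lower at P30 and 1 higher, with summed signals of 6213 to 6288 at P30 against 18964 to 21022 at P0 in Ts1Cje, and 6285 to 6937 at P30 against 21022 to 22318 at P0 in euploid. The other lists had 8 higher and 0 lower of 8 for oligodendrocytes, 9 and 1 of 11 for astrocytes, 3 and 2 of 6 for granule progenitors, 1 and 0 of 7 for microglia, 2 and 2 of 9 for endothelium, 4 and 2 of 10 for choroid plexus and meninges, and 0 and 0 of 3 for blood. In these bulk pools, fewer cells of a type and less RNA per cell cannot be told apart, and the part of these shifts in the splicing values was not tested.

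Among the snRNP proteins, the Sm ring members Snrpg, Snrpe and Snrpd3 had the largest falls between P30 and P0. Snrpg, which encodes the Sm protein G, had a signal of 371 and 371 in Ts1Cje and 297 and 306 in euploid at P0. At P15 it was 216 and 230.3 in Ts1Cje and 217 and 209.7 in euploid, and at P30 it was 140.5 and 117 in Ts1Cje and 130.3 and 110.0 in euploid. Each stage lay below the one before without overlap in either genotype. The difference between P30 and P0 was -1.40 ± 0.15 (log2, SE, n = 2 pools per stage, limma adjusted p = 0.000195), or 2.64-fold lower at P30. Snrpg was also one of the 3 probe sets called between P30 and P15 (-0.79, adjusted p = 0.0277), a call that ended without the Ts1Cje P30, euploid P15 or euploid P30 pool, with hybridisation 2 alone and without the trend in eBayes.

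Snrpe, the Sm protein E, followed the same course. Its signals were 614 and 523 in Ts1Cje and 576 and 436 in euploid at P0, 358 and 312 in Ts1Cje and 386 and 319 in euploid at P15, and 237 and 257 in Ts1Cje and 244 and 274 in euploid at P30. The stages did not overlap, and the difference between P30 and P0 was -1.06 ± 0.15 (adjusted p = 0.000675). At P15 its difference from P0 was already -0.63 (adjusted p = 0.0131), and that of Snrpg was -0.61 (adjusted p = 0.0182), and both calls ended without the Ts1Cje P0 pool and with hybridisation 2 alone, that of Snrpg also without the Ts1Cje P15 pool. The Snrpe probe set carries the suffix that marks probes shared with other sequences, so related copies may contribute. Snrpd3, the Sm protein D3, had 188 and 132 in Ts1Cje and 216 and 170.3 in euploid at P0, against 93.1 and 81.4 in Ts1Cje and 96.6 and 93.7 in euploid at P30. All P30 arrays lay below all P0 arrays, P15 (109.8 to 170.1) overlapped P0, and the P30 against P0 difference was -0.90 ± 0.15 (adjusted p = 0.00218). In each of the 6 pools the first hybridisation gave a higher Snrpd3 signal than the second.

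The U2 snRNP protein Snrpa1, known as U2 A', was low from P15 on. It had 97.3 and 97.7 in Ts1Cje and 97.1 and 57.8 in euploid at P0, 52.9 and 30.7 in Ts1Cje and 52.3 and 40.3 in euploid at P15, and 43.3 and 49.0 in Ts1Cje and 46.6 and 49.1 in euploid at P30. The later stages overlapped each other and lay below every P0 array. The P15 against P0 difference was -0.92 ± 0.20 (adjusted p = 0.00933), a call that ended without the Ts1Cje P0 pool. Snrpc, the U1-specific protein C, had -0.41 at P15 and -0.30 at P30 relative to P0, neither called, although all its later arrays (147 to 194) lay below its P0 arrays (217 to 225).

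The other snRNP probe sets went apart. Snrpb, which encodes the B and B' proteins of the Sm ring, had a P15 against P0 difference of 0.03 and a P30 against P0 difference of 0.26, neither called, and its signals ranged from 1214 to 2173. Snrpn, the neuronal paralog of Snrpb, had no probe set with a single symbol. Snrpb2, the U2 protein B'', had probe sets of opposite sign at P15 relative to P0, 0.21 and -0.60, neither called. The pseudogene probe set Snrp1c-ps2 was called higher at P30 (0.85 ± 0.22, adjusted p = 0.0139), but its arrays disagreed within pools, with 50.8 and 164 in the Ts1Cje P15 pool and 100.5 and 46.0 in the euploid P0 pool, and the call ended without either the euploid P0 or P30 pool and with hybridisation 1 alone. In all, 4 of 9 tested snRNP probe sets were lower at P30 than at P0 and 1 was higher, with a median of -0.38. Over all tested probe sets the shares were 19.6% lower and 19.4% higher.

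Start-site windows of the 3 falling Sm genes and of Hnrnpu, which rose, are shown here to set genes that moved in opposite directions beside each other. They come from RefSeq on GRCm38.p6, run 5′ to 3′ along the gene from 250 bases before to 50 after the annotated start, and lie at chr6:86371290-86371589 on the plus strand (Snrpg), chr1:133610231-133610530 on the minus strand (Snrpe), chr10:75517792-75518091 on the plus strand (Snrpd3) and chr1:178337766-178338065 on the minus strand (Hnrnpu). Capitals mark matches to CCGGAA (the core letters of ETS-family sites), CCAAT and GGGCGG on either strand, and matches may share letters.
Snrpg: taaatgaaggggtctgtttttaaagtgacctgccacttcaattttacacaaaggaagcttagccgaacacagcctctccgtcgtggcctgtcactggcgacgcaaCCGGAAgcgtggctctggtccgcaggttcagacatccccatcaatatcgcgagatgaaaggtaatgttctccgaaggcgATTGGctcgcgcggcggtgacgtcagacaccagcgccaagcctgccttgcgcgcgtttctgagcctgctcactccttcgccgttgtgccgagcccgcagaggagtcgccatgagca
Snrpe: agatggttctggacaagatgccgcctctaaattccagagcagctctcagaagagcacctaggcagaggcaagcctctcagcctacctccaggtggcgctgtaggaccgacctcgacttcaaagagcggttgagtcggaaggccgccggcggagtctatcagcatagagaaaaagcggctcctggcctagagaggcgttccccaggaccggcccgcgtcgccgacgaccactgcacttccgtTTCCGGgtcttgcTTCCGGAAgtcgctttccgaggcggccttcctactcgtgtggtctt
Snrpd3: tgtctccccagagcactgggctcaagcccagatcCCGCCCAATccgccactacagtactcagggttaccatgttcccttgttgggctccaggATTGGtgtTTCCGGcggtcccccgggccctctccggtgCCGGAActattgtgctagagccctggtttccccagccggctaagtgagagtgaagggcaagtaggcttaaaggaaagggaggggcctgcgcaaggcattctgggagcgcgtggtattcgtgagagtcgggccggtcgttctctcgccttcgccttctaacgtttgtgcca
Hnrnpu: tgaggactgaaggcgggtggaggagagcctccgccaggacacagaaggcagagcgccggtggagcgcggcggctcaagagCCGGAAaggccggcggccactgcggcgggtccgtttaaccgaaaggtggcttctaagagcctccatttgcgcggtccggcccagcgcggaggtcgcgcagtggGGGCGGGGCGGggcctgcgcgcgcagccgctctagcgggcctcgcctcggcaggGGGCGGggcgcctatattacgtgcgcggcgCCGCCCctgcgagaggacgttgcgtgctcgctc
All 4 windows hold CCGGAA: Snrpg and Hnrnpu 1 match each, Snrpd3 2 and Snrpe 3, of which a pair share letters on opposite strands. CCGGAA was found on either strand in 54.5% of the 55 windows of splicing genes (44 of the 49 genes have one), against 14.9% of all 32851 windows of the table and 18.7% of the 21263 windows of protein-coding genes. Counted by gene, with a match in any of its windows, the share was 59.1% of 44 splicing genes and 20.9% of 17492 protein-coding genes. By family it was in 83.3% of 6 snRNP windows, 87.5% of 8 SF3 windows, 58.3% of 12 SR windows, 55.6% of 9 PRPF windows and 6 of 20 hnRNP windows.

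Of the genes with such a window, 10 of 15 with a lower call at P30 in any probe set had the motif, as had 2 of 3 with a higher call and 14 of 25 with no call, and 1 gene (Prpf39) was not tested. GGGCGG (GC box) was in 69.1% of the splicing windows against 46.2% of protein-coding windows, and CCAAT in 49.1% against 38.2%. TATAAA was in 9.09% against 12.6% and CACGTG in 7.27% against 7.84%. The median GC content was 60% against 56.3%, and its part in the motif shares was not tested. Some genes have several windows, part of which overlap, and a match is a run of letters, not a shown site.

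The SF3 complex had a single call. Of 10 tested probe sets, 0 were called higher and 1 lower at P30 than at P0, against 19.4% and 19.6% of all tested. The median of the 10 was -0.13. The called probe set was that of Sf3b6, the small SF3b subunit that lies at the branch site adenosine. It had 465 and 352 in Ts1Cje and 448 and 388 in euploid at P0, against 319 and 302 in Ts1Cje and 249.7 and 315 in euploid at P30. The P30 arrays lay below the P0 arrays, with a difference of -0.47 ± 0.16 (adjusted p = 0.0434) that lost its call under 8 of 15 alternatives. The large subunit Sf3b1, a frequent target of mutation in blood cancers, gave -0.39 and -0.20 in its probe sets and Sf3b3 gave 0.28, none called. Sf3a2 had probe sets of opposite sign at P15 relative to P0, 0.19 and -0.12, neither called.

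The PRPF genes had the only family median above 0 at P30 relative to P0, 0.08 over 8 tested probe sets, with 2 called higher and 0 lower. The median over all tested was 0.04, with 19.4% called higher, so the family lay close to the array as a whole. Prpf38b, a relative of the yeast tri-snRNP factor Prp38, had 92.8 and 82.6 in Ts1Cje and 94.1 and 93.7 in euploid at P0. It had 158 and 148 in Ts1Cje and 198 and 174 in euploid at P15, and 142 and 175 in Ts1Cje and 149.6 and 174 in euploid at P30. All later arrays lay above all P0 arrays, and P15 and P30 overlapped. Its rise at P15 was 0.86 ± 0.16 (adjusted p = 0.00449), kept under all 15 alternatives, and at P30 it was 0.78 ± 0.16 relative to P0 (adjusted p = 0.00469), a call that ended without the Ts1Cje P30 pool.

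Prpf6, which bridges the particles of the tri-snRNP, had 170.3 and 169 in Ts1Cje and 190.5 and 228 in euploid at P0, against 294 and 269.6 in Ts1Cje and 277 and 242 in euploid at P30. P0 and P30 did not overlap, and the difference was 0.51 ± 0.17 (adjusted p = 0.0401), which lost its call under 7 of 15 alternatives. Prpf8, the scaffold around the catalytic centre, had a P30 against P0 difference of 0.05, with P15 values (305 to 333) below those of both P0 (357 to 440.5) and P30 (361 to 457). Its P15 against P0 difference of -0.34 was not called (adjusted p = 0.115). Prpf31, Prpf38a, Prpf4b and both probe sets of Prpf19 were called in no stage comparison, and the signals of Prpf39 were 0.4 to 23.9.

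**Figure D2:**
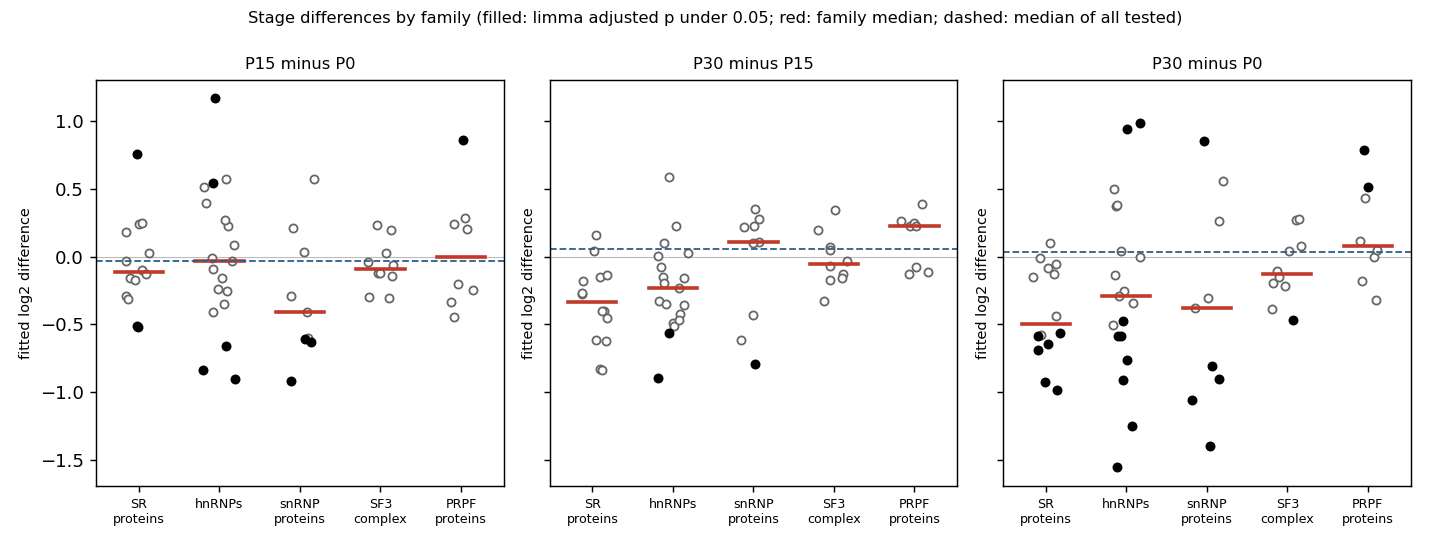
Fitted log2 differences of the 60 tested probe sets by family (horizontal) for P15 minus P0, P30 minus P15 and P30 minus P0. Filled points had a limma adjusted p under 0.05, red bars are family medians and dashed lines the median of all 7453 tested probe sets; the P30 minus P0 medians are -0.50 for SR proteins, -0.29 for hnRNPs, -0.38 for snRNP proteins, -0.13 for SF3 and 0.08 for PRPF.

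Of the 14 SR probe sets, 6 were called lower at P30 than at P0 and 0 higher, against 19.6% and 19.4% of all tested. The SR proteins had a median of -0.50 between P30 and P0. With 1 probe set per gene the median was -0.15, against -0.56 for snRNP proteins and -0.27 for hnRNPs, and over the probe sets without a suffix it was -0.14, against -0.85 and -0.27, so SR proteins were the lowest family only when all probe sets were counted. Srsf2 (SC35), which binds exonic enhancers, was measured by a pair of probe sets. The brighter one had 1451 and 1617 in Ts1Cje and 1148 and 1367 in euploid at P0, 856 and 1051 in Ts1Cje and 910.2 and 1084 in euploid at P15, and 906 and 929 in Ts1Cje and 807 and 787 in euploid at P30. The later stages lay below P0 and overlapped each other. The P30 against P0 difference was -0.69 ± 0.14 (adjusted p = 0.00458), and -0.92 ± 0.15 in the other probe set (adjusted p = 0.00139). Both were already lower at P15 (-0.51 and -0.52, adjusted p = 0.0255 and 0.0286), a call that ended in both without the Ts1Cje P0 or P15 pool, with hybridisation 2 alone and without the trend in eBayes.

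Srsf1 (SF2/ASF), the founding SR protein, fell late. The dimmer of its tested probe sets had 104 and 84.3 in Ts1Cje and 89.6 and 70.9 in euploid at P0, 76.2 and 49.4 in Ts1Cje and 119 and 78.6 in euploid at P15, and 31.5 and 43.4 in Ts1Cje and 36.8 and 58.4 in euploid at P30. P30 lay below P0 on every array, while P15 overlapped both. The P30 against P0 difference was -0.98 ± 0.22 (adjusted p = 0.00832) and the P30 against P15 difference of -0.83 was not called (adjusted p = 0.0782). The brighter one gave -0.56 ± 0.19 (adjusted p = 0.0438). Both calls ended without the Ts1Cje P0 pool and with hybridisation 2 alone, and that of the brighter one under 6 of 15 alternatives.

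Srsf6, a splicing regulator of many neuronal exons, had a peak at P15. It had 302 and 294 in Ts1Cje and 251 and 164 in euploid at P0, 426 and 481 in Ts1Cje and 389.8 and 387 in euploid at P15, and 234 and 189 in Ts1Cje and 241 and 272 in euploid at P30. Every P15 array lay above all others, and P0 and P30 overlapped. It was called at P15 relative to P0 (0.76 ± 0.20, adjusted p = 0.023), a call that ended without the euploid P0 or the Ts1Cje P15 pool, and the difference of -0.84 between P30 and P15 missed the threshold (adjusted p = 0.0533).

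The remaining SR probe sets were lower or flat at P30. Srsf3, the smallest SR protein, gave -0.58 in both probe sets, with a call in one (adjusted p = 0.0358) and none in the other (adjusted p = 0.0942). In the called probe set the hybridisations of a pool were far apart, with 349 and 187 in the Ts1Cje P0 pool and 285 and 170.2 in the euploid P0 pool. The probe sets of Srsf4 went apart, with -0.65 (adjusted p = 0.0346) and -0.01. The calls of Srsf3 and Srsf4 each ended under 5 of 15 alternatives. Srsf5, Srsf9, Srsf10 and Srsf11 were not called, at 0.10, -0.15, -0.13 and -0.05 (Srsf10) and -0.44. Between P30 and P15, 12 of 14 SR probe sets had a negative difference, against 43.65% of all tested, and none was called. Their median was -0.34, against 0.06 over all tested, and with 1 probe set per gene it was -0.27.

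**Figure D3:**
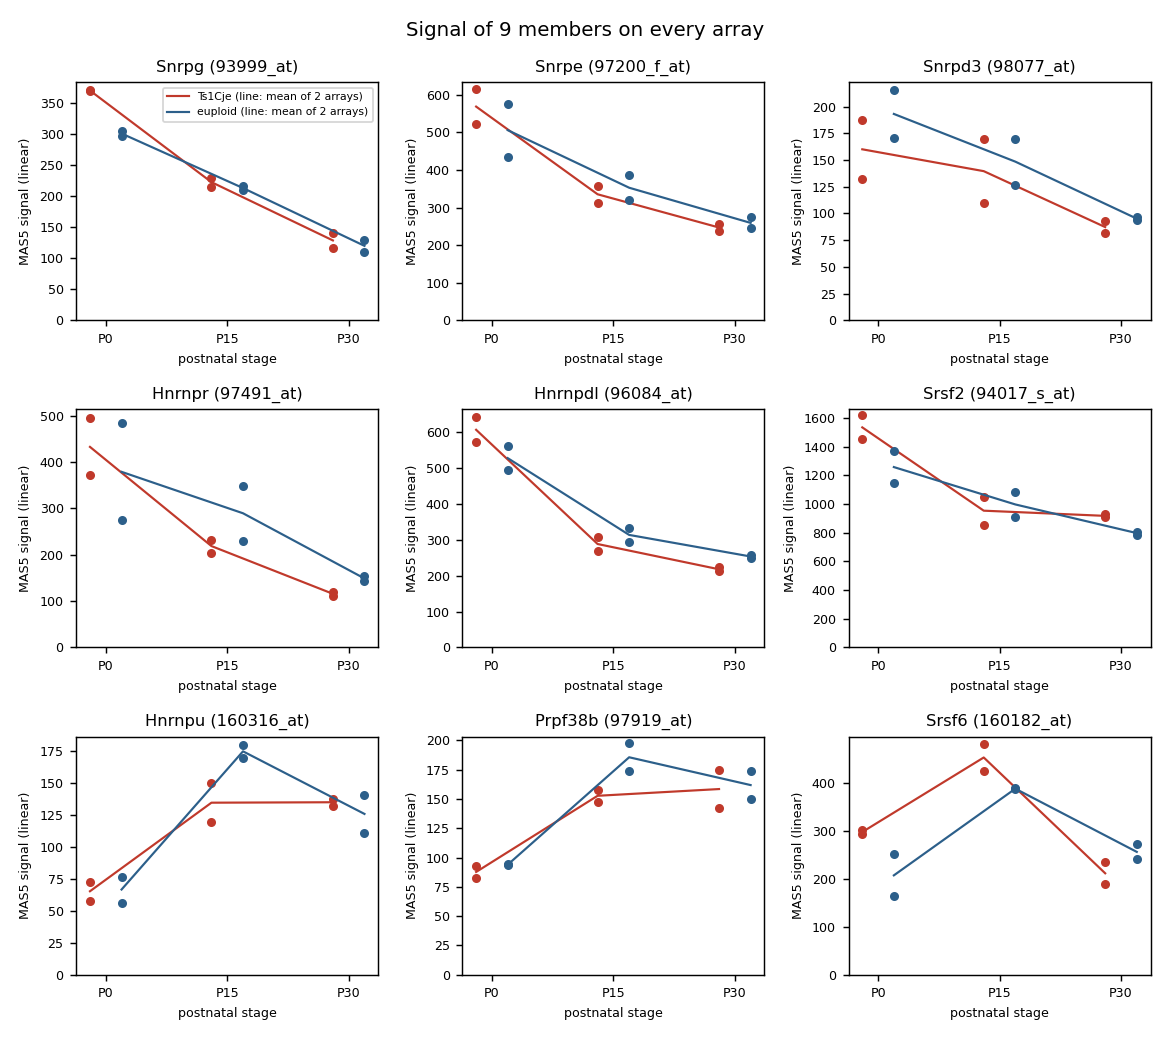
Linear MAS5 signal of 9 splicing probe sets on every array (points) at P0, P15 and P30, with lines through the mean of the 2 arrays of a pool, Ts1Cje in red to the left of euploid in blue. Snrpg, Snrpe, Snrpd3, Hnrnpr, Hnrnpdl and Srsf2 are lower at P30 than at P0, Hnrnpu and Prpf38b are higher, and Srsf6 peaks at P15.

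Among the hnRNPs, 7 of 19 tested probe sets were lower and 2 higher at P30 than at P0, with a median of -0.29. Over all tested probe sets the shares were 19.6% lower and 19.4% higher. Hnrnpr, an RNA-binding protein of neurons that also associates with mRNA in axons, had the largest fall of all splicing probe sets. It had 494 and 371 in Ts1Cje and 484 and 274 in euploid at P0, 233 and 205 in Ts1Cje and 349 and 230.3 in euploid at P15, and 111 and 120.4 in Ts1Cje and 144 and 153 in euploid at P30. All P30 arrays lay below all others, and P0 and P15 overlapped through the euploid pools. The P30 against P0 difference was -1.56 ± 0.19 (adjusted p = 0.000318), or 2.94-fold lower at P30, and the P15 step (-0.66, adjusted p = 0.0304) and the P30 step (-0.90, adjusted p = 0.035) were both called. The P15 call ended without the Ts1Cje P0 or P15 pool, the call of the later step ended without the Ts1Cje P30 or euploid P15 pool, and both ended with hybridisation 2 alone and without the trend, the later one also with no filter on mean signal.

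Hnrnpdl, a relative of Hnrnpd, fell early in both probe sets. The dimmer one had 642 and 572 in Ts1Cje and 494 and 562 in euploid at P0, 307 and 270.1 in Ts1Cje and 332 and 295 in euploid at P15, and 223 and 213 in Ts1Cje and 249.5 and 258 in euploid at P30. The stages did not overlap. The differences were -0.90 ± 0.16 at P15 (adjusted p = 0.00348) and -1.25 ± 0.16 at P30 (adjusted p = 0.000426) relative to P0. The brighter probe set gave -0.83 ± 0.12 and -0.91 ± 0.12 (adjusted p = 0.00161 and 0.000664), and all 4 calls held under all 15 alternatives.

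A further group was called between P30 and P0 and in neither neighbouring step. Hnrnpd (AUF1), which binds AU-rich elements, gave -0.77 ± 0.19 (adjusted p = 0.0143), with 283 and 324 in Ts1Cje and 270.1 and 249 in euploid at P30, against 566 and 499.6 in Ts1Cje and 493 and 379.8 in euploid at P0. Hnrnpk, which binds C-rich RNA, gave -0.58 ± 0.14 (adjusted p = 0.0118), and Hnrnph1, which binds G-rich RNA, gave -0.58 ± 0.13 (adjusted p = 0.00837). All P30 arrays of these 3 lay below all P0 arrays, and all 3 calls ended without the Ts1Cje P0 or the euploid P30 pool and with hybridisation 2 alone, those of Hnrnpk and Hnrnph1 also without the Ts1Cje P30 pool.

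Hnrnpa2b1, a carrier of transported mRNAs, was lower at P30 than at both earlier stages. Its brighter probe set had 1572 and 1404 in Ts1Cje and 1621 and 1253 in euploid at P0, 1555 and 1594 in Ts1Cje and 1563 and 1480.3 in euploid at P15, and 1039 and 1008 in Ts1Cje and 957 and 1177 in euploid at P30. P30 lay below both earlier stages without overlap. The differences at P30 were -0.57 ± 0.12 relative to P15 (adjusted p = 0.0379) and -0.48 ± 0.12 relative to P0 (adjusted p = 0.0139). The dimmer probe set gave -0.33 and -0.35, neither called, and near-zero P15 against P0 differences of opposite sign, 0.09 in the brighter and -0.01 in the dimmer one. The calls of the brighter one ended under 7 (P30 against P15) and 5 (P30 against P0) of 15 alternatives, both without the Ts1Cje P30 or the euploid P30 pool.

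The nuclear matrix protein Hnrnpu (scaffold attachment factor A) went the other way. It had 72.9 and 57.8 in Ts1Cje and 76.9 and 56.5 in euploid at P0, 150.1 and 119 in Ts1Cje and 180.3 and 169.7 in euploid at P15, and 132 and 138 in Ts1Cje and 111 and 141 in euploid at P30. All later arrays lay above all P0 arrays. The rise was 1.17 ± 0.18 at P15 (adjusted p = 0.00174) and 0.94 ± 0.18 at P30 (adjusted p = 0.00338) relative to P0, and neither call was lost under the 15 alternatives. Another probe set of Hnrnpu was too dim to test, at 1.6 to 23.0.

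Its relative Hnrnpul2 was higher at P30 in its brighter probe set, which had 212 and 234 in Ts1Cje and 279 and 243 in euploid at P30, against 77.5 and 86.8 in Ts1Cje and 196 and 152 in euploid at P0. The difference of 0.99 ± 0.30 (adjusted p = 0.0292) was 1.39 in Ts1Cje and 0.58 in euploid, and its call ended without the Ts1Cje P0 pool and with hybridisation 1 alone. The other probe set gave 0.50 and was not called. Hnrnph2, a close copy of Hnrnph1 on the X chromosome, was called higher at P15 (0.54 ± 0.17, adjusted p = 0.0429), with 133 and 98.3 in Ts1Cje and 130.3 and 88.1 in euploid, against 65.8 and 76.8 in Ts1Cje and 97.6 and 63.0 in euploid at P0. The euploid arrays of the stages overlapped, and the call ended under 10 of 15 alternatives. Hnrnpa1, Hnrnpab, Hnrnpc, Hnrnph3, Hnrnpl, Hnrnpll and Hnrnpm were called in no stage comparison.

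Other genes of the splicing pathway were read from lists that leave out the families above. Of 37 tested genes on a list of core spliceosome and Sm-like proteins, 8 were lower and 5 higher at P30 than at P0. The median of the 37 was -0.12. All tested probe sets gave 19.6% lower and 19.4% higher, so that the share that fell is near that of the array. The falls included Lsm1, Lsm2, Lsm3 and Lsm7, which form Sm-like rings, at -0.84, -0.78, -1.02 and -0.57. At P15, 4 of the 37 were lower and 0 higher, against 14.4% and 13.6% of all tested, so both shares are below those of the array. The 4 were the U5 protein Txnl4a (-0.69), Lsm3 (-0.69), the snRNP assembly factor Smn1 (-0.65) and Rbm17 (-0.60). Txnl4a was higher again at P30 relative to P15 (0.77, adjusted p = 0.0271).

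Of 21 SR-related proteins and SR kinases, 3 were higher and 0 lower at P15, against 13.6% and 14.4% of all tested, so that the share that rose is near that of the array. They were the SR protein kinase Clk1 (1.07), Son (0.90) and Rsrp1 (0.64). At P30, 3 were higher than at P0 and 1 was lower, against 19.4% and 19.6% of all tested. The lower one was the splicing activator Tra2b (-0.79). Clk1 had 429 and 441 in Ts1Cje and 576 and 537.5 in euploid at P15, against 206.5 and 246 in Ts1Cje and 240.2 and 238 in euploid at P0, without overlap. The SR family that Clk1 phosphorylates had 1 higher and 2 lower of 14 in that comparison.

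Of 22 tested genes on a list of tissue-specific regulators and other RNA-binding proteins, 8 were lower and 2 higher at P30 than at P0. All tested probe sets gave 19.6% lower and 19.4% higher, and the median of the 22 was -0.44. The neuronal protein Elavl2 was at -2.14 at P15 and -3.01 at P30, the neuronal polypyrimidine tract protein Ptbp2 at -0.92 and -0.94, and the cold-inducible protein Cirbp at -1.37 and -0.71. Khdrbs1 (Sam68) was lower at P15 (-0.84) and Mbnl1, a muscleblind protein, was higher at P15 and P30 (0.86 and 1.05). Syncrip, a close relative of Hnrnpr, was at -1.33 at P30 relative to P0 and -1.10 relative to P15 (adjusted p = 0.0115).

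Of 10 tested FET, paraspeckle and other RNA-binding proteins, 6 were lower and 1 higher at P30, against the same 19.6% and 19.4%. The median of the 10 was -0.64. The paraspeckle protein Pspc1 was at -1.07 at P15 and -2.06 at P30, and the RNA-binding protein Ybx1 at -0.94 and -1.60. Of 6 exon junction and cap-binding genes, 2 were lower and 0 higher at P30, against the same 19.6% and 19.4%. They were Alyref (-0.99) and Rbm8a (-0.46), with Rbm8a lower at P15 too (-0.50).

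No splicing gene was called between genotypes. Limma called 0 of the 60 splicing probe sets and 0.0% of the 7453 tested for Ts1Cje against euploid over the 3 stages, and 1 of the 60 had an unadjusted p under 0.05, against 2.91% of all tested. None of the 49 genes lies on chromosome 16. The median difference was -0.0057 over the 60 and -0.0011 over all tested. The sign was the same at all 3 stages for 5 probe sets that were higher, against 11.7% of all tested, and for 8 that were lower, against 9.14%.

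For comparison, a trisomic splicing gene is given as a single case, not as the typical size of a genotype difference. Son, a splicing cofactor of nuclear speckles encoded in the segment of chromosome 16 that Ts1Cje carries in excess, had 470.4 and 421 in Ts1Cje against 246 and 223 in euploid at P0, 709.7 and 744 against 544 and 473 at P15, and 651 and 619 against 384 and 338 at P30. The Ts1Cje arrays were higher without overlap at each stage, with a difference of 0.75 ± 0.12 that did not pass over all probe sets (adjusted p = 0.481).

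The member with the smallest p was Srsf10, an SR protein that represses splicing when dephosphorylated. Its dimmer probe set had 30.2 and 31.5 in Ts1Cje against 49.1 and 43.0 in euploid at P0, 41.7 and 22.4 against 36.1 and 43.5 at P15, and 30.7 and 26.5 against 35.1 and 58.9 at P30. The genotypes did not overlap at P0 and P30 and overlapped at P15, and the difference was -0.48 ± 0.16 (adjusted p = 0.9999). The other probe set of Srsf10 gave -0.32 ± 0.15, with arrays that ran from 28.2 to 52.6 in Ts1Cje and from 34.4 to 65.7 in euploid. The probe sets had P15 against P0 differences of opposite sign, -0.10 and 0.03.

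The other members named for a steady sign were smaller or dimmer. Prpf31, a tri-snRNP protein mutated in human retinal degeneration, gave -0.47 ± 0.21, with 28.3 and 31.9 in Ts1Cje against 60.1 and 75.2 in euploid at P0, 45.7 and 29.2 against 38.3 and 37.9 at P15, and 36.4 and 44.6 against 57.7 and 44.1 at P30. The arrays were apart at P0 and overlapped at P15 and P30. On the higher side, Snrpb2 gave 0.36 ± 0.17 in its brighter probe set and 0.11 in the other, Snrpg 0.15 ± 0.12 and Prpf8 0.11 ± 0.12. Snrpg was apart at P0 alone, as its signals above show, and every adjusted p of a splicing probe set in this comparison was 0.9999.

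Within single stages, with 1 pool against 1 pool and no test, the SR and hnRNP medians over probe sets were above 0 at P0 and below 0 at both later stages. At P0, the arrays did not overlap for 15 splicing probe sets that were higher in Ts1Cje and 11 that were lower, where all tested probe sets gave 22.4% and 21.9%. At P15 the counts were 6 higher and 17 lower, against 21.0% and 18.5%, and at P30 they were 8 higher and 14 lower, against 19.6% and 19.8%. For the 14 SR probe sets alone, 5 were higher and 1 lower at P0, 1 higher and 6 lower at P15, and 1 higher and 5 lower at P30. The median over the SR probe sets came to 0.19 for P0, -0.25 for P15 and -0.17 for P30, against 0.02, 0.01 and -0.0009 over all tested. At P30 the SR values ran from -0.60 to 0.25. The 14 SR probe sets belong to 9 genes, and medians with 1 probe set per gene were not taken for single stages. The hnRNP medians were 0.06, -0.12 and -0.05, with 3 higher and 8 lower of 19 at P15 and 2 higher and 6 lower at P30. The medians of snRNP and SF3 probe sets were above 0 at P0 (0.16 and 0.05), below it at P15 (-0.10 and -0.16) and above it at P30 (0.01 and 0.12), and those of PRPF were -0.17, -0.02 and 0.10. The P15 values rest on the Ts1Cje pool that stood apart in Xist, and the part of sex in them was not tested. Arrays of a pool also differed in the median deviation from each probe set's mean. At P0, SR medians were 0.26 and 0.14 in Ts1Cje against 0.22 and -0.09 in euploid. Those of hnRNPs were 0.24 and 0.08 against 0.24 and -0.08. For P15, SR had 0.07 and -0.09 against 0.32 and 0.10, and hnRNPs 0.07 and -0.07 against 0.22 and 0.04. For P30, SR had -0.28 and -0.33 against -0.28 and -0.12, and hnRNPs -0.28 and -0.15 against -0.13 and -0.19. The part of the hybridisation was not tested.

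**Figure D4:**
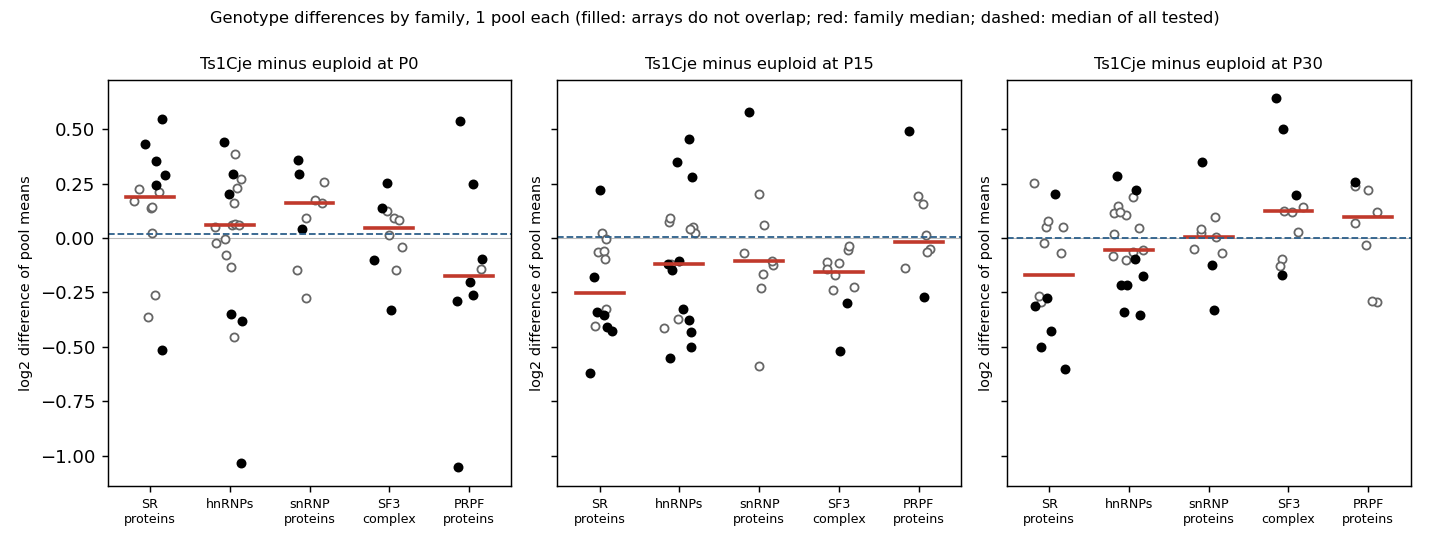
Difference of pool means, Ts1Cje minus euploid in log2(signal + 4.6), for the 60 tested probe sets by family (horizontal) at P0, P15 and P30. Filled points have arrays that do not overlap, red bars are family medians and dashed lines the median of all tested. The SR median, over 14 probe sets of 9 genes, is above the dashed line at P0 and below it at P15 and P30.

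The model with a genotype difference changing by day called 0 of the 60 and 0.0% of all tested, with 1 of the 60 at an unadjusted p under 0.05, against 2.59%. The change from P0 to P30 was -0.82 ± 0.36 for Srsf6, whose Ts1Cje arrays lay above the euploid ones at P0 and P15 and below them at P30. It was -0.93 ± 0.44 for the dimmer probe set of Srsf3, 0.79 ± 0.38 for the dimmer one of Sf3a2 and 0.76 ± 0.49 for Prpf31 (limma adjusted p = 0.9997 each). Srsf3 had 74.9 and 50.6 in Ts1Cje against 50.3 and 39.4 in euploid at P0, and 25.6 and 29.4 against 37.4 and 44.4 at P30, where the genotypes did not overlap at either stage. Sf3a2 had 253 and 298 against 292 and 316 at P0, and 293 and 499 against 264 and 224 at P30, with overlap at P0.

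Between P15 and P0, 3 of the 60 moved in opposite directions in the genotypes without overlap of their arrays, against 5.73% of all tested probe sets. They belong to Prpf19, Srsf4 and Hnrnpul2.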

How the data were processed

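RNA of 6 cerebellum pools was measured on 12 arrays. Per the submitters' processing notes, the authors used MAS5 to make the deposited values, 1 linear signal intensity per probe set and array. No source used here gives its version or settings. The trimmed mean signal was 99.3 to 99.96 on all arrays, and no further scaling was applied. Symbols came from the platform annotation, and all 68 splicing probe sets matched the RefSeq table (GRCm38.p6). Values were transformed to log2(signal + 4.6), the 20th percentile of all values, a scale on which changes of dim probe sets come out too small. Left out were 66 control probe sets and those with a mean under 20.1 (the 40th percentile), leaving 7453.

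The hybridisations of a pool were averaged on the log2 scale. An additive model of genotype and stage (2 residual degrees of freedom, prior of 6.39) and a model with genotype by day (1 and 9.51) were fitted (limma 3.58.1, R 4.3.3, eBayes with a trend, two-sided), with Benjamini-Hochberg adjustment over all tested probe sets and a threshold of 0.05. The fit was tested on simulated data. The spread behind each p-value is that between pools and includes technical variation and any stage-dependent genotype difference. The number of pools limits the precision, and detection calls were not analysed here. Suffixes _s, _f and _r mark probes shared between transcripts or chosen by relaxed rules, carried by 14 of the 60 tested.

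Alternatives were the pseudocount (1 and 20), the filter (none, and the 60th percentile), quantile normalization, median centring, eBayes without a trend, each hybridisation alone and each pool left out. The members and gene lists were chosen with earlier results of these data known. Genes are named by family as the largest called changes at P15, the largest called changes between P30 and P15, the steadiest or smallest-p genotype differences, genes whose probe sets disagree, and Snrpb and Snrpn. All probe sets called between P30 and P0 were added, and any other member may be named with its value. Protein sequences were not analysed here. Plots used matplotlib 3.10.9 (python 3.11.15).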

Additional observations from a re-analysis of the deposited data

Results flagged for a closer look

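For 3 of the 60 tested splicing probe sets, against 5.73% of all tested, both Ts1Cje arrays moved one way between P0 and P15 while both euploid arrays moved the other way. The difference between genotypes was not tested, and the share is near that of the whole array. Prpf19, a ubiquitin ligase of the spliceosome, measured by its brighter probe set, differed by 0.59 at P15 relative to P0 in Ts1Cje and by -0.11 in euploid (log2). Its signals in Ts1Cje were 739 and 817 at P15 against 506 and 527 at P0, and in euploid 563 and 540.2 at P15 against 580.5 and 610.0 at P0. A dimmer probe set of Prpf19 gave -0.13 in Ts1Cje and 0.54 in euploid, the opposite order. Srsf4, in its dimmer probe set, differed by -0.38 in Ts1Cje and by 0.32 in euploid, with 73.9 and 73.8 at P15 against 88.5 and 108 at P0 in Ts1Cje, and 99.5 and 91.7 against 84.4 and 67.5 in euploid. Hnrnpul2, in its brighter probe set, differed by 1.14 in Ts1Cje and by -0.35 in euploid, with 210.5 and 165 at P15 against 77.5 and 86.8 at P0 in Ts1Cje, and 149.9 and 121 against 196 and 152 in euploid.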

How the results depend on the processing

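No paired analysis was possible because the shared numbers in the labels name the 2 hybridisations of a pool, which were averaged into 1 value before each fit. Counts of splicing probe sets called between genotypes, and by genotype and day, stayed at 0 under every alternative run. The model by day could not be fitted without a pool, for lack of residual degrees of freedom. Lower at P15 than at P0, there were 8 probe sets, 4 among those without a suffix (chosen after seeing the data), and 2 to 9 when a pool or a hybridisation was left out: 2 without the Ts1Cje P0 pool, 4 without the Ts1Cje P15 pool and 3 with hybridisation 2 alone. Higher at P30 than at P15, there were 0, and 0 to 1 when one was left out, with 1 without the Ts1Cje P15 pool and 1 with hybridisation 1 alone. Lower at P30 than at P15, there were 3, 1 without a filter, 0 without the trend in eBayes, and 0 to 12 when one was left out. These were 0 without the euploid P15 or the Ts1Cje P30 pool, 5 without either P0 pool, 8 without the Ts1Cje P15 pool, 12 with hybridisation 1 alone and 0 with hybridisation 2 alone. Higher at P30 than at P0, there were 5, and 3 to 6 when one was left out, with 3 without either P30 pool. Lower at P30 than at P0, there were 18, and 8 to 25 when one was left out. Taking 1 probe set per gene gave 14 of 48 lower, and probe sets without a suffix 12 of 46. The cause of these shifts was not tested. Of 821 values of named probe sets under alternatives, 712 kept their side of the threshold, 108 lost a call, 1 gained one and 0 of the called ones changed sign. Of 345 family medians, 54 moved by at least a standard deviation of the family's medians. That deviation was taken between the genotypes for stage comparisons, and between the stages for genotype comparisons. Without a filter, dim probe sets shift the median of all tested to -0.11 at P15 relative to P0 and 0.11 at P30 relative to P15.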
